A study of Phaseolus vulgaris with 12 samples.

Results

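The heat shock proteins HSP89.1 (gene Phvul.008G285400) and HSP60 (gene Phvul.007G135100) are molecular chaperones, named as such in the deposited annotation. They were taken by gene name, as 2 of the 22542 loci in an expression table of common bean (Phaseolus vulgaris). The pair was picked because both transcripts were far higher under cold in each variety. Those 2 cold comparisons are therefore a description here, with no test. The study sequenced leaf mRNA (true leaves, in bulk) of variety 120, which the design text calls cold-tolerant, and variety 093, which it calls cold-sensitive. The 12 libraries formed 4 groups of 3, namely 120 cold, 120 control, 093 cold and 093 control. Plants of the cold groups spent 3 days at 4 °C in an incubator, and control plants stayed on a culture rack without cold, so cold and place cannot be told apart. All plants had 12 h of light a day. Each variety and treatment had 3 pots with 4 seeds each, and no genetic change is given for either variety. Whether libraries of one group stem from different pots or plants is not given in the labels, so a p-value here reflects only their own spread, possibly a technical one.

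Mitochondria take in most of their proteins unfolded from the cytosol and fold them in the matrix. An HSP70 pulls the incoming chain through the inner membrane with the help of the exchange factor GrpE. HSP60 then encloses folding proteins in a barrel that the co-chaperonin HSP10 closes. HSP89.1 is named after the Arabidopsis member of the HSP90 family in the mitochondrial matrix, a chaperone of the kind called TRAP1 in animals. The GO terms deposited with HSP60 give the mitochondrion, its matrix and the response to heat. Those of HSP89.1 give the mitochondrion but also the chloroplast and its stroma. Its deposited KEGG orthology entry, K09487, is that of the endoplasmic reticulum kind of HSP90 and not that of TRAP1. The annotation thus does not place this protein in mitochondria alone.

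Levels are given in FPKM, the number of fragments of a transcript relative to its length and to all mapped fragments of the library. HSP89.1 reached 46.7, 45.0 and 49.1 FPKM in the libraries of 120 cold, against 1.13, 0.563 and 2.30 FPKM in the 120 control libraries. In variety 093 it stood at 61.3, 63.6 and 64.5 FPKM in cold libraries, against 0.333, 0.560 and 0.492 FPKM in control libraries. Every cold library was above every control library in both varieties, and the leaves held very little of this transcript without cold. The mean of 46.9 ± 2.07 FPKM in 120 cold was 35.3 times the 120 control mean of 1.33 ± 0.883 FPKM. The mean of 63.1 ± 1.64 FPKM in 093 cold was 137 times the 093 control mean of 0.462 ± 0.116 FPKM (SD, n = 3 libraries per group here and below). The larger ratio in 093 rests on the lower control level as well as on the higher cold level. Control levels this low come from few fragments, and without the total fragments per library a counting interval cannot be computed. In bulk leaf RNA, a change in the number of cells of a type and a change of RNA per cell cannot be told apart.

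HSP60 reached 59.3, 66.0 and 86.5 FPKM in the libraries of 120 cold, against 1.96, 1.26 and 3.64 FPKM in the 120 control libraries. In variety 093 it stood at 79.0, 81.7 and 79.7 FPKM in cold libraries, against 1.20, 1.17 and 1.56 FPKM in control libraries. Cold and control libraries again did not overlap in either variety. The mean of 70.6 ± 14.2 FPKM in 120 cold was 30.9 times the 120 control mean of 2.29 ± 1.23 FPKM. The mean of 80.2 ± 1.39 FPKM in 093 cold was 61.1 times the 093 control mean of 1.31 ± 0.216 FPKM. Of all 14716 loci tested, 42.2% had every 120 cold library above every 120 control library, and 50.7% the same in 093. Libraries in this order were thus common in these data.

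**Figure D1:**
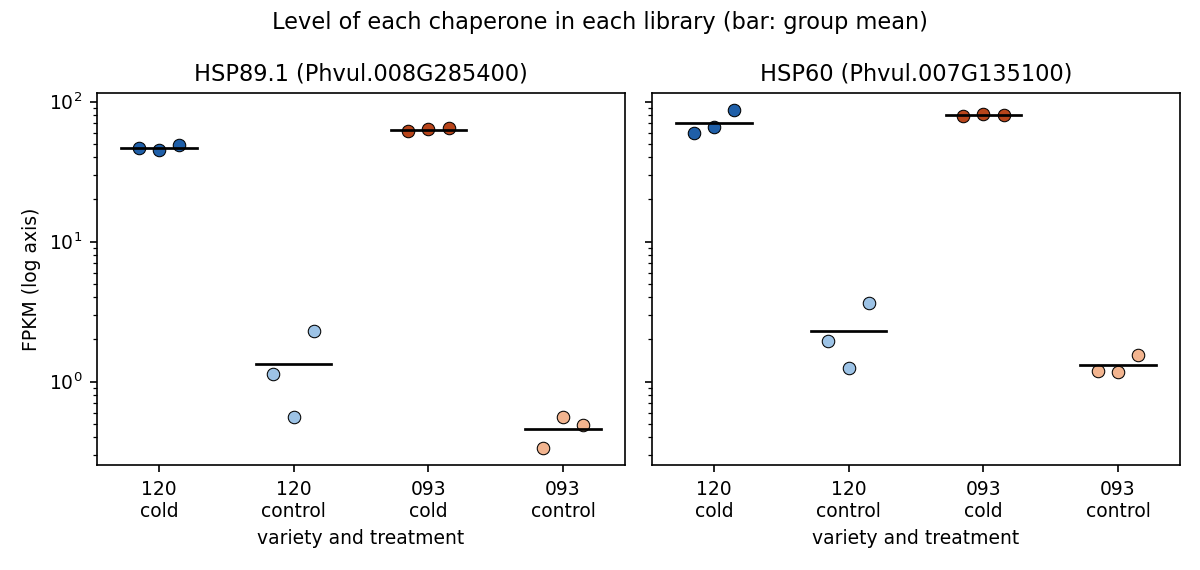
Level of HSP89.1 (left) and HSP60 (right) in FPKM on a log axis, with 1 point per library and a bar at the mean of each group of 3. Cold libraries stand between 45.0 and 86.5 FPKM and control libraries between 0.333 and 3.64 FPKM, and the 093 cold libraries lie closest together.

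On log2(FPKM + 1), the scale of the model, the cold difference of HSP89.1 was 4.43 (SE 0.213) in 120 and 5.46 (SE 0.213) in 093. That of HSP60 was 4.49 (SE 0.227) in 120 and 5.14 (SE 0.227) in 093. The added 1 FPKM makes these values smaller than the log2 of the ratios of means. By the mean of both absolute values, HSP89.1 stood in place 98 and HSP60 in place 112 of all tested loci. Among 176 tested loci from 11 lists of chaperones, co-chaperones and heat shock transcription factors, which hold no import, protease or prohibitin loci, they stood in places 3 and 4. Just ahead were a GrpE locus (Phvul.009G196500, mean absolute difference 5.57) and a mitochondrial HSP70 locus (Phvul.002G215800, described as mitochondrial HSO70 2, 5.41). Just behind were the other mitochondrial HSP70 locus (Phvul.006G199800, 4.54) and another HSP60 locus (Phvul.007G238500, 4.36).

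Both transcripts stood near the top of all tested loci in cold libraries and in the lower part in control libraries. HSP89.1 was above 90.1% to 91.2% of tested loci in the 120 cold libraries, against 11.8% to 29.0% in the 120 control libraries. In 093 it was above 93.0% to 93.4% of loci in cold libraries, against 9.23% to 13.1% in control libraries. HSP60 was above 92.7% to 95.5% of loci in the 120 cold libraries, against 19.4% to 37.9% in the 120 control libraries. In 093 it was above 94.9% to 95.2% of loci in cold libraries, against 20.3% to 21.4% in control libraries.

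Libraries of a group differed least in 093 cold, where the highest HSP89.1 value was 1.05 times the lowest and that of HSP60 1.03 times. They differed most in 120 control, where these ratios were 4.08 for HSP89.1 and 2.90 for HSP60. Both transcripts were highest in 120 control library 3 and lowest in 120 control library 2. Of the loci called higher under cold in 093, 120 control library 3 was the highest of its group for 35.3%, against 35.7% for 120 control library 2. In 093 control it was library 3 that stood apart, as the highest of its group for 65.2% of loci called higher under cold in 120, against 21.1% for library 1 and 13.8% for library 2. HSP60 was highest in this library as well, at 1.56 FPKM, while HSP89.1 was not.

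The cold responses of the 2 varieties were compared with limma on all 12 libraries, with Benjamini-Hochberg adjustment over all 14716 loci. Calls required an adjusted p below 0.05 together with a log2 difference of 1 or more in either direction. This contrast uses the same libraries as the cold comparisons, but the pair was not chosen for it. The response of HSP89.1 was smaller in 120 than in 093, by a log2 difference of -1.03 (SE 0.302, 95% interval -1.69 to -0.37, adjusted p = 0.0232 by limma). It was called lower, as were 13.1% of all tested loci (6.5% were called higher). That split did not hold under the scalings, with 1424 loci called higher and 1162 lower after median-ratio scaling and 1276 in each direction after quantile normalization, against 956 higher and 1930 lower without them. In the contrast as fitted the median locus was at -0.23 itself. The call was lost, by its size or its p, under both scalings tried, at -0.81 (adjusted p = 0.0693 by limma) after median-ratio scaling and -0.95 after quantile normalization. It was also lost without 120 control library 3 (-0.74), 120 cold library 2 (-0.998), 093 control library 1 (-0.96) or 093 cold library 3 (-1.01). Without 093 control library 3, which stood apart in its group, the difference was -1.04 (adjusted p = 0.0328 by limma) and remained called. HSP60 gave -0.65 (SE 0.321, 95% interval -1.35 to 0.06, adjusted p = 0.144 by limma) and was not called, nor was it without 093 control library 3 (-0.72). Without 120 control library 2, HSP60 stood at -0.89 (adjusted p = 0.0341 by limma), not called by its size.

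Under cold alone, every 120 library was below every 093 library for HSP89.1, as the values above show. The same held for 33.6% of all tested loci in this comparison. The log2 difference, 120 against 093, was -0.42 (95% interval -0.89 to 0.05, adjusted p = 0.151 by limma), and 12.6% of all loci were called. For HSP60 it was -0.20 (95% interval -0.70 to 0.30, adjusted p = 0.532 by limma), and the groups overlapped through the 86.5 FPKM of 120 cold library 3. Neither difference passed the test in this fit, which pools the spread of all 4 groups. Its intervals allow up to 0.89 less HSP89.1 and 0.70 less HSP60 in 120 on the log2 scale. With only the cold groups fitted, HSP89.1 was again at -0.42, with an adjusted p of 0.00777 by limma. It was then not called by its size alone. HSP60 gave an adjusted p of 0.319 by limma in that fit.

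Without cold, every 120 control library was above every 093 control library for HSP89.1, if only by 0.563 against 0.560 FPKM at the closest pair. Of all tested loci, 25.1% showed the same order of libraries, and 10.8% were called. The log2 difference, 120 against 093, was 0.61 (95% interval 0.14 to 1.08, adjusted p = 0.0555 by limma). For HSP60 it was 0.45 (95% interval -0.05 to 0.95, adjusted p = 0.176 by limma), and the groups overlapped. Neither transcript was called. With a pseudocount of 0.1 FPKM in place of 1, the difference of HSP89.1 came to 1.18 (adjusted p = 0.0314 by limma) and was called. With only the control groups fitted, it was again 0.61, with an adjusted p of 0.168 by limma. Without 120 control library 3 it was 0.32 (adjusted p = 0.17 by limma). Without 120 control library 2 it was 0.86 (adjusted p = 0.00495 by limma), not called by its size. HSP60 stood at 0.69 in that fit (adjusted p = 0.0363 by limma), also not called by its size.

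**Figure D2:**
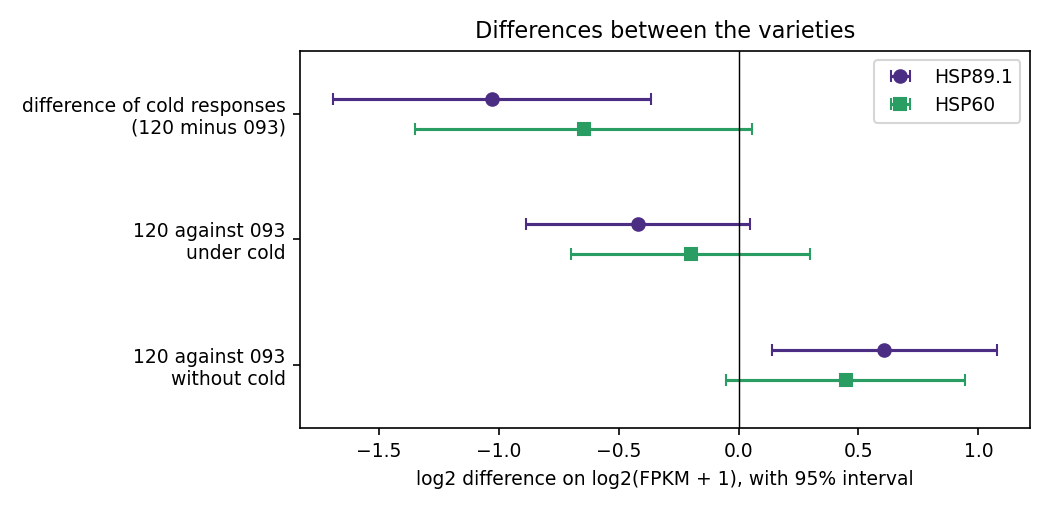
Log2 differences between varieties for HSP89.1 (circles) and HSP60 (squares), on log2(FPKM + 1), with 95% intervals for the difference of cold responses and for 120 against 093 under cold and without cold. The 2 intervals that do not reach 0 are those of HSP89.1 for the difference of responses (-1.69 to -0.37) and without cold (0.14 to 1.08). All intervals use a spread pooled over the 4 groups.

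Because FPKM are scaled by transcript length, the ratio of HSP60 to HSP89.1 compares the transcripts directly. It was 1.5 ± 0.248 in 120 cold, against 1.85 ± 0.338 in 120 control. In 093 it was 1.27 ± 0.0297 in cold, against 2.96 ± 0.774 in control. HSP60 was the more abundant in all 4 groups, with the widest gap in 093 control, and the values of 120 cold and 120 control lay within their spread of each other. These ratios follow from the cold comparisons that chose the pair and were not tested.

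Of 3 loci described as HSP60, Phvul.007G135100 held 53.9% ± 2.24 of the summed FPKM in 120 cold, against 37.1% ± 8.02 in 120 control. In 093 it held 45.1% ± 0.887 in cold, against 36.7% ± 4.57 in control. The sum itself was 132 ± 32.4 FPKM in 120 cold, against 5.88 ± 1.91 FPKM in 120 control. In 093 it was 178 ± 5.91 FPKM in cold, against 3.66 ± 1.09 FPKM in control. In the cold groups the 120 mean was the lower of the 2, as for the single locus. HSP89.1 held 9.36% ± 1.22 of the summed FPKM of 7 HSP90 loci in 120 cold, against 1.01% ± 0.459 in 120 control. In 093 it held 7.36% ± 0.213 in cold, against 0.712% ± 0.232 in control. It remained a small part of the family in FPKM, though a larger one under cold. Loci of a family can share reads, which the authors' counting may split between them, so shares within the HSP60 loci are uncertain.

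**Figure D3:**
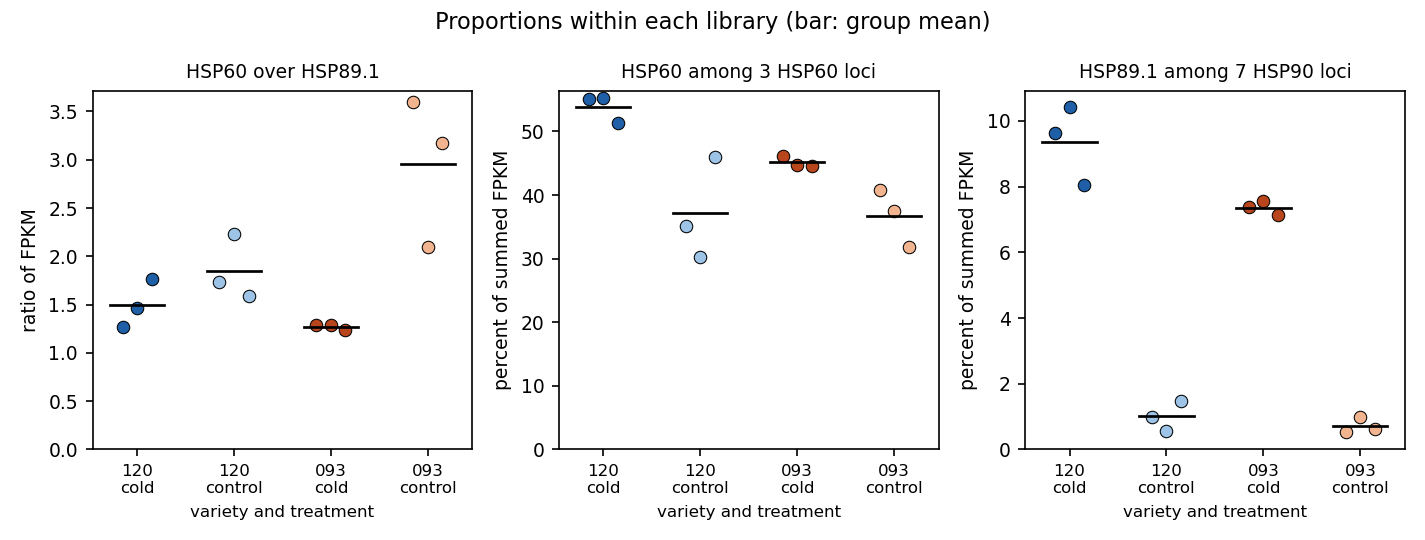
Proportions within each library, with 1 point per library and a bar at the mean of each group: the ratio of HSP60 to HSP89.1, HSP60 (Phvul.007G135100) as a percentage of the summed FPKM of 3 HSP60 loci, and HSP89.1 as a percentage of the summed FPKM of 7 HSP90 loci. The ratio is highest in 093 control (mean 2.96), and the share of HSP89.1 is higher in both cold groups (means 9.36% and 7.36%) than in the control groups (1.01% and 0.712%).

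Other HSP60 and chaperonin-60 loci rose as well. Of the 3 tested, 2 rose in 120, where 27.8% of all tested loci were called higher and 18.6% lower. All 3 rose in 093, where 33% were called higher and 15.2% lower. The excess of higher calls depended on the scaling. In 120, 4092 loci were called higher and 2733 lower, against 3572 and 3188 after median-ratio scaling and 3297 and 3382 after quantile normalization. In 093, 4857 were called higher and 2239 lower, against 3347 and 3386 after median-ratio scaling and 3343 and 3480 after quantile normalization. Phvul.007G238500, whose GO terms match those of HSP60, stood at 38.8, 43.0 and 69.97 FPKM in 120 cold libraries, against 2.50, 2.50 and 3.15 FPKM in 120 control libraries. In 093 it stood at 81.2, 89.2 and 87.0 FPKM in cold libraries, against 1.38, 1.49 and 2.66 FPKM in control libraries. It rose by 3.75 on the log2 scale in 120 and by 4.96 in 093 (adjusted p = 3.98e-08 and 5.5e-09 by limma), and its response was smaller in 120 by a log2 difference of -1.21 (SE 0.309, adjusted p = 0.0124 by limma). That last call was lost after median-ratio scaling (-0.94). HSP60-3A (Phvul.010G138700), a less abundant form, averaged 10.7 ± 1.41 FPKM in 120 cold, against 0.881 ± 0.428 FPKM in 120 control. In 093 it averaged 11.7 ± 0.620 FPKM in cold, against 0.508 ± 0.169 FPKM in control, and it rose in both. Chaperonin-60alpha (Phvul.011G082600), the relative that folds chloroplast proteins such as Rubisco, is the third of these loci. It averaged 46.3 ± 23.5 FPKM in 120 cold, against 30.4 ± 4.53 FPKM in 120 control, and was not called. In 093 it averaged 56.4 ± 0.298 FPKM in cold, against 11.2 ± 0.0933 FPKM in control, and rose by 2.24. Its responses differed by -1.75 (adjusted p = 0.00403 by limma), with a higher control level in 120 (log2 difference 1.36, adjusted p = 0.00222 by limma), a direction in which 6.34% of all tested loci were called.

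Of 5 tested co-chaperonin loci, the lids of chaperonin barrels, 3 rose in each variety. That is 60%, against 27.8% of all tested loci in 120 and 33% in 093. Chaperonin 10 (Phvul.001G120500), annotated to the mitochondrial matrix alone, averaged 92.0 ± 38.6 FPKM in 120 cold, against 6.51 ± 1.94 FPKM in 120 control. In 093 it averaged 89.9 ± 3.57 FPKM in cold, against 6.10 ± 1.06 FPKM in control. It rose by 3.59 (SE 0.256) in 120 and by 3.69 (SE 0.256) in 093, and the wide SD in 120 cold comes from library 3 at 137 FPKM. A GroES-like locus (Phvul.002G095400) rose by 1.54 in 120 and by 1.78 in 093. Chaperonin 20 (Phvul.009G224900), the chloroplast co-chaperonin in Arabidopsis, rose by 1.16 in 120 and 1.42 in 093, and both calls were lost after median-ratio scaling (0.95 and 0.88). The call in 093 was also lost after quantile normalization (0.90), and that in 120 without 120 control library 1 (0.94) or 120 cold library 3 (0.82). Another GroES-like locus (Phvul.010G041700) and another chaperonin 20 locus (Phvul.003G128900) were not called in either variety.

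Both mitochondrial HSP70 loci, partners of HSP60 in the matrix, rose in both varieties. Phvul.006G199800 stood at 140, 140 and 124 FPKM in 120 cold libraries, against 5.93, 3.45 and 8.33 FPKM in 120 control libraries. In 093 it stood at 135, 134 and 138 FPKM in cold libraries, against 3.28, 3.497 and 6.21 FPKM in control libraries. It rose by 4.36 in 120 and by 4.72 in 093 (adjusted p = 3.52e-08 and 1.91e-08 by limma), and under cold the varieties differed by -0.02 (SE 0.250), less than the SE. The second locus, Phvul.002G215800, was chosen after its values were seen. It averaged 78.2 ± 21.2 FPKM in 120 cold, against 1.76 ± 1.005 FPKM in 120 control, and 145 ± 6.53 FPKM in 093 cold, against 1.38 ± 0.292 FPKM in 093 control. It rose in both varieties, by 4.87 and 5.95, and its response was smaller in 120 (-1.08, adjusted p = 0.0308 by limma). That last call was lost with a pseudocount of 0.1, after median-ratio scaling (-0.81), and without any 1 of 7 libraries, namely each 093 cold library, 093 control library 2, 120 control library 3 and 120 cold libraries 1 and 2, with values of -1.10 to -0.80. Summed over both loci, mitochondrial HSP70 reached 213 ± 11.8 FPKM in 120 cold, against 7.67 ± 3.42 FPKM in 120 control, and 281 ± 8.42 FPKM in 093 cold, against 5.70 ± 1.62 FPKM in 093 control. Of 12 tested HSP70 loci of all compartments, 10 rose and 2 fell in 120, while in 093 there were 9 that rose and 1 that fell. The shares that rose were 83.3% in 120 and 75% in 093, against 27.8% and 33% of all tested loci. HSC70-1 (Phvul.007G157200), a cytosolic HSP70 in Arabidopsis, fell by 1.24 in 120, a call lost after quantile normalization (-0.99), and was not called in 093. It averaged 226 ± 36.3 FPKM in 120 cold, against 537 ± 103 FPKM in 120 control, and 636 ± 38.1 FPKM in 093 cold, against 412 ± 32.8 FPKM in 093 control.

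GrpE loci split by locus. Phvul.009G196500, annotated to the mitochondrial matrix and the chloroplast, averaged 95.5 ± 16.5 FPKM in 120 cold, against 2.06 ± 1.68 FPKM in 120 control. In 093 it averaged 127 ± 4.13 FPKM in cold, against 0.971 ± 0.417 FPKM in control. It rose by 5.11 in 120 and by 6.04 in 093, and its difference of responses was not called (-0.94, SE 0.431, adjusted p = 0.117 by limma). Of the 4 tested GrpE loci, 1 rose in 120 (25%, against 27.8% of all tested loci) and 3 in 093 (75%, against 33%). The share in 120 is thus near that of loci in general. With a pseudocount of 0.1 or 0.5 FPKM, 2 rose in 120. Phvul.001G108000 averaged 31.0 FPKM in 120 cold, against 33.5 FPKM in 120 control, and 28.6 FPKM in 093 cold, against 21.7 FPKM in 093 control. Phvul.009G026300 rose in 093 by 1.33, a call lost after median-ratio scaling (0.89) and quantile normalization (0.92), and was not called in 120.

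Proteins that bring precursors into mitochondria rose in part. Of 12 tested import loci, 5 rose in 120 (8 with a pseudocount of 0.1 or 0.5 FPKM). That is 41.7%, against 27.8% of all tested loci. None fell in 120, or 1 after either scaling, with those pseudocounts, or without 120 control library 1 or 120 cold library 3. In 093 5 rose (3 after either scaling) and 1 fell, so that 41.7% rose, against 33% of all tested loci. TOM20-3 (Phvul.004G072400), a receptor for precursor proteins on the outer membrane, averaged 79.6 ± 20.6 FPKM in 120 cold, against 4.73 ± 0.824 FPKM in 120 control. In 093 it averaged 96.9 ± 1.59 FPKM in cold, against 4.99 ± 2.33 FPKM in control, and it rose by 3.79 in 120 and 4.10 in 093. TOM40 (Phvul.002G324200), the pore of the outer membrane, averaged 75.0 ± 19.5 FPKM in 120 cold, against 12.0 ± 4.21 FPKM in 120 control. In 093 it averaged 67.0 ± 3.58 FPKM in cold, against 15.7 ± 3.07 FPKM in control, and it rose by 2.57 in 120 and 2.04 in 093. A Tim17/22/23 locus (Phvul.009G040400), of the inner membrane pore family, averaged 88.9 FPKM in 120 cold, against 51.7 FPKM in 120 control, and 86.6 FPKM in 093 cold, against 64.3 FPKM in 093 control. It was not called in either variety.

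Both prohibitin loci, which form rings in the inner membrane, rose in both varieties. Phvul.005G099600 averaged 60.9 ± 11.7 FPKM in 120 cold, against 3.19 ± 1.20 FPKM in 120 control, and 87.0 ± 3.37 FPKM in 093 cold, against 1.86 ± 0.417 FPKM in 093 control. It rose by 3.90 in 120 and 4.95 in 093, and Phvul.011G018300 rose by 2.79 and 3.19. Description words for mitochondrial processing and proteolysis matched 14 tested loci, not all of them described as mitochondrial. Of these, 4 rose in 120 (28.6%, against 27.8% of all tested loci) and 6 in 093 (42.9%, against 33%). The share in 120 is thus that of loci in general. Lon protease 1 (Phvul.007G201200), which degrades misfolded matrix proteins, was chosen after its values were seen. It averaged 11.04 ± 0.936 FPKM in 120 cold, against 0.543 ± 0.121 FPKM in 120 control, and 15.7 ± 0.690 FPKM in 093 cold, against 0.296 ± 0.0632 FPKM in 093 control. Alternative respiration counted 12 tested loci, of which 7 in 120 and 8 in 093 rose and 1 in each fell. The shares that rose were 58.3% in 120 and 66.7% in 093, against 27.8% and 33% of all tested loci. The external NADH dehydrogenase NDB2 (Phvul.002G221500) rose by 3.08 in 120 and 3.64 in 093.

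**Figure D4:**
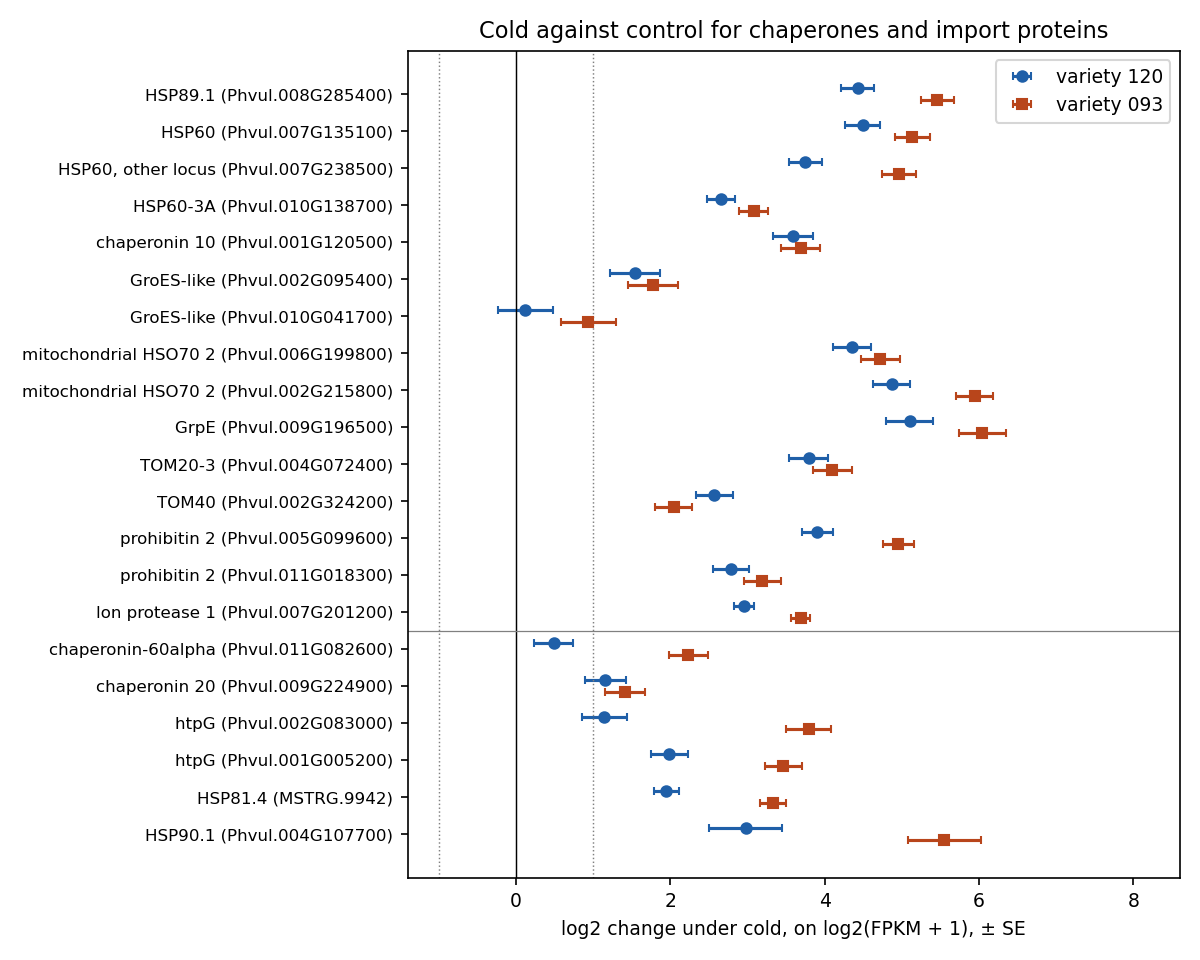
Log2 change under cold, on log2(FPKM + 1) with SE, for HSP89.1, HSP60 and named loci of their machinery, in variety 120 (circles) and variety 093 (squares). Above the horizontal line stand the pair, other HSP60, co-chaperonin, mitochondrial HSP70, GrpE, import, prohibitin and Lon loci, and below it chaperonin-60alpha, chaperonin 20 and HSP90 loci of other kinds. Dotted lines mark a log2 change of 1 in either direction. Values of HSP89.1 and HSP60 are a description, since the pair was chosen on these comparisons.

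Other members of the HSP90 family rose too. Of the 8 tested besides HSP89.1, 5 rose in 120 (62.5%, against 27.8% of all tested loci) and 7 in 093 (87.5%, against 33%). For 5 of the 8 the response was called lower in 120, against 13.1% of all tested loci, and the list's median was -1.24. The list was matched by words and holds 4 ATPases related to HSP90 only by their fold. HSP90.1 (Phvul.004G107700), a cytosolic heat-induced form in Arabidopsis, averaged 70.2 ± 8.91 FPKM in 120 cold, against 10.3 ± 7.62 FPKM in 120 control, and 83.7 ± 6.85 FPKM in 093 cold, against 0.816 ± 0.231 FPKM in 093 control. It rose by 2.98 in 120 and by 5.55 in 093, and its responses differed by -2.57 (SE 0.668, adjusted p = 0.0133 by limma). HSP81.4 (MSTRG.9942), another cytosolic form in Arabidopsis and the most abundant of the family here, averaged 238 ± 53.4 FPKM in 120 cold, against 60.3 ± 7.59 FPKM in 120 control, and 450 ± 24.6 FPKM in 093 cold, against 43.9 ± 4.94 FPKM in 093 control. It rose by 1.95 in 120 and 3.33 in 093. An htpG locus annotated to the endoplasmic reticulum (Phvul.001G005200) rose by 1.99 in 120 and 3.47 in 093. The htpG locus annotated to the chloroplast stroma (Phvul.002G083000) rose by 3.79 in 093. In 120 it rose by 1.15, a call lost after either scaling (0.94 and 0.82) and without 120 control library 2 (0.88) or 120 cold library 3 (0.88). Whether the response of HSP89.1 differs from those of these loci was not tested.

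Loci with the broad GO term mitochondrion rose about as often as the 27.8% and 33% of all tested loci. Loci of the 2 narrower mitochondrial lists below rose more often. Of 955 other tested loci with the GO term mitochondrion, 271 rose in 120 (28.4%) and 167 fell, while in 093 325 rose (34%) and 131 fell (218 after median-ratio scaling and 221 after quantile normalization). Their median log2 change was 0.27 in 120 and 0.46 in 093, close to the medians of 0.18 and 0.43 over all tested loci. Of 62 other loci with the term mitochondrial matrix, 28 rose in 120 (45.2%) and 31 in 093 (50%), and 7 fell in each. Their median log2 changes were 0.69 in 120 and 0.99 in 093. Of 375 other loci with the term chloroplast stroma, which the annotation also gives HSP89.1, 55 rose in 120 against 110 that fell, and in 093 74 rose against 72 that fell (49 rose and 120 fell after median-ratio scaling). Of 82 other loci described with the word mitochondrial, 36 rose in 120 (43.9%) and 37 in 093 (45.1%), and 9 fell in each. Loci matched by the words TCP-1/cpn60 or T-complex protein rose for 10 of 13 in 120 and 12 of 13 in 093. These words take in cytosolic and organellar chaperonins and also T-complex protein 11 (Phvul.006G216100), which is no chaperonin. HSP90 co-chaperones rose for 4 of 5 in each variety (2 of 5 in 093 after either scaling). DnaJ proteins, which deliver clients to HSP70, were mixed, since of 83 tested 21 rose in 120 against 20 that fell, and in 093 29 rose against 17 that fell. The split in 093 turned to 18 that rose and 23 that fell after median-ratio scaling, and 18 and 24 after quantile normalization. Heat shock transcription factors, the activators of heat shock genes, rose for 9 of 14 tested loci in 120 and 4 of 14 in 093 (2 in 120 and 1 in 093 at a filter of 5 FPKM). That filter can drop loci from the test, so counts at it need not be out of 14. For 5 of the 14 the response was called higher in 120, against 6.5% of all tested loci, and for 0 lower, the opposite direction to HSP89.1. That count was 3 with a pseudocount of 0.1 FPKM, 0 at a filter of 5 FPKM and 2 without 1 of several libraries, namely 093 control 1, 093 cold 2 or 3, 120 control 2, or 120 cold 1 or 2. It was 3 without 093 control 2. Small heat shock proteins rose for 6 of 11 tested loci in each variety (4 rose and 1 fell in 093 after either scaling). HSP100 and Clp proteins, which unfold aggregates or feed proteases, rose for 1 of 16 in each variety (2 with a pseudocount of 0.1 or 0.5 FPKM). They fell for 3 in each (5 in 093 after either scaling).

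Leaf markers were mostly lower under cold. The summed level of 35 Rubisco, Rubisco activase and light-harvesting loci lay between 6574 and 11093 FPKM in 120 cold, against 26987 and 31087 FPKM in 120 control. In 093 the sum lay between 8810 and 9532 FPKM in cold, against 23118 and 34107 FPKM in control. Of 32 tested, 21 fell in 120 (65.6%, against 18.6% of all tested loci) and 19 in 093 (59.4%, against 15.2%), and 1 rose in each. The sum of 62 seed and cotyledon storage loci lay between 303 and 409 FPKM in 120 cold, against 336 and 376 FPKM in 120 control. In 093 it lay between 322 and 365 FPKM in cold, against 227 and 522 FPKM in control. Of 18 storage loci tested, 10 rose and 1 fell in each variety. The share that rose was 55.6%, against 27.8% of all tested loci in 120 and 33% in 093. After either scaling, 9 rose and 2 fell in 093. The part of the lower leaf markers in the higher chaperone levels, since FPKM are relative to all mapped fragments, was not tested. After quantile normalization, which gives every library the same distribution, the cold differences of HSP89.1 were 4.10 in 120 and 5.05 in 093, and those of HSP60 4.16 and 4.74.

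HSP89.1 and HSP60 were each other's nearest locus in pattern. Likeness was the root mean square difference between log2(FPKM + 1) profiles over the 12 libraries, each centred on its own mean, among 11459 candidate loci with a description and a gene name of their own. The pair differed by 0.165 (r = 0.998 over 12 libraries). A high r alone says little here, because 14.6% of candidates reached an r of 0.95 with HSP89.1 and 14.8% with HSP60. All 12 points share the step between cold and control, and the values are given without a test. Both loci were picked for that step, so part of their closeness follows from the choice. They remained each other's nearest after either scaling and when any 1 library was left out. With a pseudocount of 0.5 FPKM, HSP60 remained the nearest to HSP89.1, but HSP89.1 was the 2nd nearest to HSP60 (difference 0.246). With a pseudocount of 0.1 FPKM, HSP60 was the 3rd nearest to HSP89.1 and HSP89.1 the 22nd nearest to HSP60 (0.416). The closeness of the pair thus depends on the added FPKM.

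The next nearest to HSP89.1 were a Brix-domain ribosomal RNA processing protein (Phvul.007G223300, 0.259), a phosphoglycerate mutase (Phvul.008G184700, 0.282), an enolase (Phvul.001G186100, 0.294) and histone deacetylase 2B (Phvul.011G090000, 0.317). The enolase, a glycolytic enzyme, was far more abundant, at 633 ± 121 FPKM in 120 cold, against 41.6 ± 5.54 FPKM in 120 control, and 1046 ± 42.9 FPKM in 093 cold, against 23.04 ± 3.91 FPKM in 093 control. The next nearest to HSP60 were histone deacetylase 2B (0.223), a ribosome biogenesis protein of the RRS1 family (Phvul.003G163900, 0.238), the mitochondrial HSP70 locus Phvul.006G199800 (0.255) and the prohibitin Phvul.005G099600 (0.273). Histone deacetylase 2B averaged 43.7 ± 12.4 FPKM in 120 cold, against 1.11 ± 0.270 FPKM in 120 control, and 52.0 ± 0.853 FPKM in 093 cold, against 0.869 ± 0.239 FPKM in 093 control.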

How the data were processed

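RNA was extracted with Trizol, mRNA was captured on oligo(dT) beads, and strand-marked (dUTP) libraries gave paired reads on an Illumina NovaSeq, per the labels' protocols. The submitters' processing notes list cutadapt 1.9, HISAT2 2.0.4 and StringTie 1.3.4d. DESeq2 and edgeR are also named there, without version or role, and were not used here. The genome build is not given in the sources used here. Per the file headers, the authors deposited FPKM, in a table that has 1 column for each library. FPKM summed to 313320 to 350100 per library, and 12091 to 13357 loci reached 1 FPKM. No 2 libraries held identical values (highest correlation 0.976).

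Testing was limited to loci that reached 1 FPKM in 3 or more of the 12 libraries (14716, both members among them). limma 3.58.1 (R 4.3.3) fitted group means to log2(FPKM + 1) with a variance trend, and two-sided p-values were adjusted by Benjamini-Hochberg within each of 5 contrasts. The fit was tested on simulated data. Members and the lists, made by matching description words, were chosen with earlier results of these data known. Named were all tested loci of the HSP90, HSP60 and co-chaperonin lists, up to 3 by mean FPKM of the TCP-1, HSP70, GrpE, HSP90 co-chaperone, import, protease, prohibitin and alternative respiration lists, and the 5 nearest loci in pattern. Not every eligible locus is described. Of the RefSeq locus names supplied, none matched, so no sequence is shown.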

Additional observations from a re-analysis of the deposited data

Results flagged for a closer look

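The cold responses of 16 named loci differed between the varieties by limma's test of the difference itself, each with a smaller (more negative) value in 120 than in 093. HSP89.1 (Phvul.008G285400) was one, at -1.03. Among mitochondrial partners were HSP60 Phvul.007G238500 (-1.21), the mitochondrial HSP70 Phvul.002G215800 (-1.08) and the prohibitin Phvul.005G099600 (-1.05). The GrpE locus Phvul.009G026300 (-1.11) and an insulinase-family peptidase (Phvul.002G040800, -1.002) entered by description words that do not place them in mitochondria. HSP90 relatives were HSP90.1 (Phvul.004G107700, -2.57), HSP81.4 (MSTRG.9942, -1.39), the htpG loci Phvul.001G005200 (-1.48) and Phvul.002G083000 (-2.65), and, by its fold only, an HSP90-like ATPase (Phvul.002G118800, -1.09). A stress-inducible protein (Phvul.002G060800, -1.35) entered from the list of HSP90 co-chaperones. The others were HSC70-1 (Phvul.007G157200, -1.86), chaperonin-60alpha (Phvul.011G082600, -1.75), a TCP-1/cpn60 chaperonin (Phvul.005G051700, -1.77) and T-complex protein 11 (Phvul.006G216100, -2.18). Adjusted p-values by limma lay between 0.000347 for HSC70-1 and 0.0308 for the mitochondrial HSP70, which was named after its values were seen. Of all tested loci, 13.1% were called in this direction and 6.5% in the other, and all 16 values share the same 12 libraries. The loci are those eligible to be named, so the DnaJ, small heat shock protein, HSP100 and heat shock factor lists could not enter. The TCP-1 and import lists each held 1 locus called higher in 120, which was not named. The number 16 is thus no share of a full list, and the common direction depends in part on which loci were named. Of the 16, 7 lost the call under at least 1 alternative. After median-ratio scaling these were HSP89.1 (-0.81), Phvul.007G238500 (-0.94), Phvul.002G215800 (-0.81), Phvul.005G099600 (-0.78), Phvul.009G026300 (-0.84), Phvul.002G040800 (-0.68) and Phvul.002G118800 (-0.87). All but Phvul.007G238500 and Phvul.002G215800 also lost it after quantile normalization, and all but Phvul.007G238500 and Phvul.002G118800 without some single library.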

How the results depend on the processing

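The smaller response of HSP89.1 in 120 kept its direction under 19 alternatives and its call under 13. It was lost after median-ratio scaling (-0.81) and quantile normalization (-0.95), and the 12 values without 1 library ran from -1.28 to -0.74. Median-ratio scaling moved the median log2 of all loci by 0.26 in this contrast, by -0.16 in the cold contrast of 120 and by -0.42 in that of 093. Without cold, the 120 against 093 difference of HSP89.1 passed with a pseudocount of 0.1 (1.18), with values of 0.32 to 0.86 when 1 library was left out. It did not pass with only the control groups fitted (adjusted p = 0.168 by limma). No alternative called HSP60 in any comparison between varieties, and its difference of responses ran from -0.89 to -0.37. Counts of calls over all loci, both directions summed, stayed within 1.5 times, but the scalings moved their split by direction as given above. Of 78 results for other named loci, 17 lost their call under some alternative, 16 of them under a scaling, and 0 reversed. Replicate numbers do not pair the libraries: deviations of same-numbered libraries correlated between -0.08 and 0.05. With the replicate block, HSP89.1's difference of responses was -1.03 (adjusted p = 0.0258 by limma). Control levels under 1 FPKM and the unknown fragment totals limit the precision of the ratios.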
